A study of Mus musculus with 3 samples.

Results

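The first 50 nucleotides of mRNA were examined in mouse embryonic stem cells of J1 background with the genotype Tet1-/-,Tet2-/-,Tet3-/-, in bisulfite-treated mRNA from 3 samples that form 1 group. Bisulfite converts an unmodified cytosine, so a cytosine that still reads as cytosine may be methylated, hydroxymethylated or missed by the reagent. These cannot be told apart here. The cells had been grown on embryonic fibroblast feeders and separated from them by repeated plating, and polyadenylated RNA was sequenced. Nothing in the labels says that the samples came from separate cultures, so the spread between them may be technical. Wild-type cells were not analysed here. A cytosine was a member of the set when it lay at position 1 to 50 of its RefSeq transcript and had a coverage of 10 or more reads in all 3 libraries. Positions count from the annotated start, and whether transcription began there in these cells was not tested. This held for 22504 of the 1639820 cytosines with that coverage, or 1.37%, in 2688 transcripts of 2663 named genes. They were compared with 87652 cytosines at positions 51 to 200 of the same transcripts, of which 2630 had such cytosines.

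An mRNA made by RNA polymerase II begins with a methylated guanosine cap, which is joined to the first transcribed nucleotide and recruits the translation machinery. The nucleotides after it form the 5′ untranslated region, where GC-rich structure and short start motifs can set how well a message is translated. Messages of ribosomal proteins and of several translation factors are known for a start motif, the TOP motif, of a cytosine followed by a run of pyrimidines. In mRNA, 5-methylcytosine is rare and is placed mainly by NSUN2 and NSUN6, and the reagent converts cytosine poorly where RNA is folded.

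The member positions can be read on sequence. A RefSeq start sequence (GRCm38.p6) with a cytosine at every listed position was found for 1509 of the 2688 transcripts, which hold 11975 members. In 1502 of these, every cytosine between the first and the last listed one was listed as well. For 497 transcripts no start sequence was at hand, and for 682 the sequence had another base at a listed position. The 8 stretches below were chosen because the results turn on them: the only member that stayed unconverted in every read (Rplp2), 4 messages with weaker sites, 1 message with a member at position 1 of its RefSeq model, and 2 messages whose start was lower than the next stretch. Capitals mark the site or sites called in the first 5 lines and all members in the last 3.
Rplp2: cgccggacgcCgccgaggtcgcacgcgtga
Ppp1r14b: caggccaagcCCgggggCtccgcatgctgc
Uqcr10: gttcggcagtgaggcaacatgtcgtCgccg
Pofut2: ggggccatggCggcgctcagcgtcgtctgc
Etv5: ggcgcgcaggCgggcgcgcggagtggccgc
Ube2s: CagaCgtaaCgttgtgagCgtttCgtagCg
Tuba1a: cctCCtCCtCgCCtCCgCCatCCaCCCggC
Cct8: ttcCCagCaggCagtgCgCggCgCCCCttg
The Rplp2 stretch covers positions 9 to 38 of the transcript (chr7:141447658-141447687, + strand); its listed cytosines match the RefSeq sequence once the start is moved 1 nt upstream. The others match without a shift. They cover positions 12 to 41 of Ppp1r14b (chr19:6975059-6975088, +), 21 to 50 of Uqcr10 (chr11:4704295-4704324, -), 18 to 47 of Pofut2 (chr10:77259317-77259346, +) and 21 to 50 of Etv5 (chr16:22439521-22439550, -). The last 3 begin at position 1: Ube2s (chr7:4812311-4812340, -), Tuba1a (chr15:98953472-98953501, -) and Cct8 (chr16:87495840-87495869, -). All coordinates are of GRCm38.p6, while the authors' tables give only positions along transcripts, from a mapping to mm9 per the submitters' processing notes.

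Depth at the start of messages was limited. Over all positions the libraries hold between 3653533 and 3846960 listed cytosines, with a summed coverage of 139884444 to 151362866. At positions 1 to 50, 68226 cytosines of 6545 transcripts were listed in at least 1 library, and 33.0% of them had the coverage to be members. Members had a median coverage of 32, 31 and 28 reads in replicates 1, 2 and 3, against 54, 49 and 47 at positions 51 to 200. Where no read is unconverted, the true share may still reach 9.38%, 9.68% and 10.7% at these member medians and 30% at 10 reads, taking 3 counts as the limit. These limits cover counting error only. The median member had 0.660 times the mean coverage at positions 51 to 200 of its transcript, and 31.1% of members had more than that mean. Coverage chose the members, so these values describe them and were not tested.

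Members were unevenly spread. A transcript held between 1 and 26 of them, with a median of 8, and 1049 transcripts held 10 or more. The median member position was 35: 829 members lay at positions 1 to 10 and 7721 at positions 41 to 50. The most members were found in Agrn, a basement membrane proteoglycan, with 26, and in Kpnb1, the nuclear import receptor, the actin gene Actg1, the tubulin gene Tuba1a and the transcription factor gene Srf, with 24 each. The 10 deepest transcripts took 26.4%, 26.8% and 28.1% of member coverage in replicates 1, 2 and 3. Reads of ribosomal protein, actin, tubulin, ubiquitin and cyclophilin messages have near-identical copies elsewhere in the genome, so their origin is uncertain. For 148 genes with members, several transcript models were listed.

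The share of unconverted reads was lower at the start of messages than just behind it. At positions 1 to 50 it was 1.38%, 1.36% and 1.27% in replicates 1, 2 and 3, and at positions 51 to 200 of the same transcripts 1.59%, 1.50% and 1.44%. Within each library the start was thus lower, by 0.201, 0.141 and 0.170 percentage points. The mean difference was -0.171 ± 0.0301 percentage points (SD, n = 3; exact two-sided sign-flip test over libraries, p = 0.25, the smallest that 3 libraries allow). With each of 2276 transcripts weighted alike, each having 3 or more eligible cytosines on both sides, it was -0.178 ± 0.0252 percentage points (SD, n = 3; p = 0.25 by the same exact test). Taken within deciles of member coverage and averaged with each decile weighted alike, the difference was -0.297 ± 0.0185 percentage points (SD, n = 3). That average gives thin cytosines more weight than the pooled shares do, so it is not the same measure as the first difference. Against a window further downstream, behind position 200, the transcript-weighted difference was -0.0803 ± 0.0350 (SD, n = 3).

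The lowest shares lay at the very start. In steps of 5 nt the share was 0.482% ± 0.118 at positions 1 to 5, 0.714% ± 0.0791 at 6 to 10, 0.818% ± 0.0376 at 11 to 15 and 1.04% ± 0.0621 at 16 to 20 (SD, n = 3 for each). It reached 1.25% ± 0.0673 at 21 to 25, 1.40% ± 0.0579 at 31 to 35 and 1.48% ± 0.0801 at 46 to 50 (SD, n = 3). Up to position 40 each step was higher than the one before it in the mean, and positions 41 to 45 were lower again, at 1.37% ± 0.0584. The steps between 51 and 200 ran from 1.45% to 1.57%. Mean coverage moved with position too, from 45.0 reads at positions 1 to 5 to 121 at 46 to 50 in replicate 1, and its part in the low shares was not tested. By their own coverage, the thinnest members (under 20 reads in the mean) had 1.41% ± 0.0589 and those with 100 reads or more 1.32% ± 0.0601 (SD, n = 3). Relative to the mean coverage at 51 to 200 of their transcript, the order was the reverse. Members below 0.25 times that mean had 1.19% ± 0.0565, and those at 1 time or more 1.40% ± 0.0522 (SD, n = 3).

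**Figure D1:**
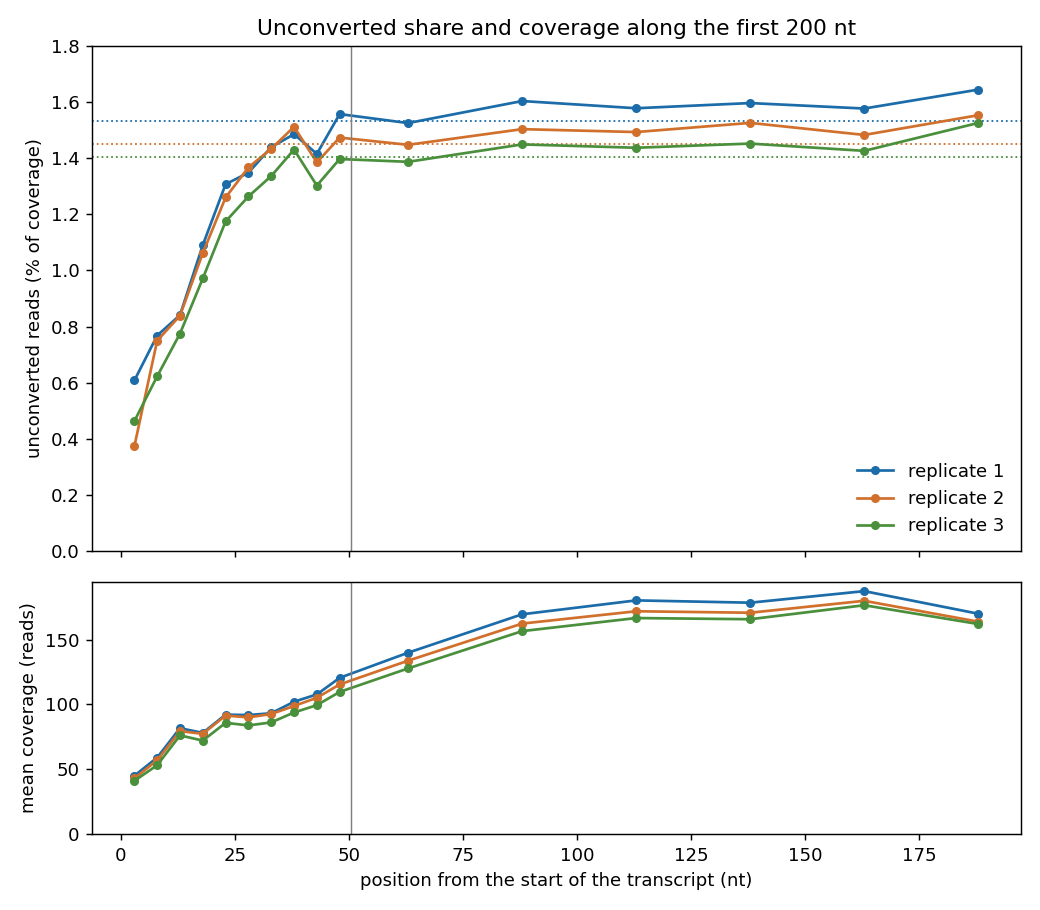
Share of unconverted reads (upper panel, percent of coverage) and mean coverage (lower panel, reads) by position from the transcript start in nt, for the 3 libraries, in steps of 5 nt up to the grey line at position 50 and of 25 nt after it; dotted lines are the library-wide shares. The libraries lie between 0.374% and 0.608% at positions 1 to 5 and between 1.40% and 1.56% at positions 46 to 50.

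Different messages make up each step, so 1 set of transcripts was followed along its start. The 416 transcripts with a member at positions 1 to 10 had 0.742%, 0.690% and 0.597% there in replicates 1, 2 and 3. Their share was 0.899% ± 0.0431 at 11 to 20, 1.30% ± 0.0711 at 21 to 30 and 1.51% ± 0.0581 at 31 to 40 (SD, n = 3). It then stayed at 1.44% to 1.51% in all steps to position 200. Between 363 and 404 of the 416 had an eligible cytosine in each later step, so the messages still differ somewhat between steps. No library's value at positions 1 to 10 overlapped any library's value from 11 onward. In the 1085 transcripts with a member at positions 1 to 20, the share was 0.906% ± 0.0551 at 1 to 20, 1.42% ± 0.0600 at 21 to 50 and 1.51% ± 0.0693 at 51 to 200 (SD, n = 3). The difference between the first 2 of these was -0.510 ± 0.00560 percentage points (SD, n = 3; p = 0.25, exact sign-flip test). Without the 10 deepest transcripts it was -0.392 ± 0.0166. Of 675 transcripts with 3 or more members on each side of position 20, 490 had the lower mean share at 1 to 20, 231 of them in every library, and 41 had the higher share in every library. Against positions 51 to 200, the difference of positions 21 to 50 alone was -0.107 ± 0.0299, and that of 31 to 50 alone -0.0756 ± 0.0281 (SD, n = 3).

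**Figure D2:**
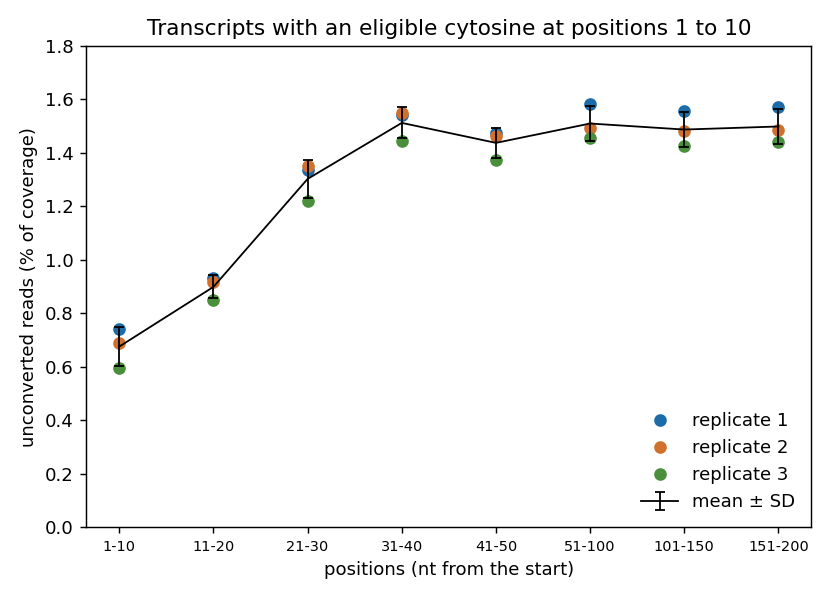
Share of unconverted reads (percent of coverage) by position in the 416 transcripts that have a member at positions 1 to 10 (363 to 404 of them in each later step), with a point for each library and the mean ± SD of the 3. The values at positions 1 to 10 (0.597% to 0.742%) lie below those of every later step.

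At position 1, the first nucleotide of the RefSeq model, 6 transcripts had a cytosine deep enough to be a member. Whether it is the nucleotide joined to the cap was not tested. They were Atox1, a copper chaperone, the ribosomal protein genes Rps20 and Rpl14, Ptma (prothymosin alpha), Ube2s, an enzyme of mitotic ubiquitination, and Nelfa, a subunit of a transcription pausing factor. The 5 deepest had 156, 148, 82, 47 and 40 reads over the 3 libraries, for Atox1, Rps20, Ptma, Ube2s and Nelfa. No read of the 505 in these 6 messages was unconverted, which allows a share of up to 0.594% over the 6 pooled. For single messages the limit ran from 1.92% in Atox1 to 9.38% in Rpl14, so it lies above the library background in each. The 3 libraries were alike in this, with 0 unconverted reads each. Position 2 was a member in 16 transcripts, at 0.134%, 0% and 0.313% in replicates 1, 2 and 3. On either side of the boundary of the set, position 50 stood at 1.41% ± 0.0629 in 832 members and position 51 at 1.31% ± 0.0660 in 820 cytosines of any transcript (SD, n = 3).

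The deepest messages show the step in single transcripts. Rps20, a small-subunit ribosomal protein, had 0.630% ± 0.0434 unconverted at its 8 members up to position 20 and 1.67% ± 0.0575 at the 13 behind it, from 97607 and 411823 reads summed over cytosines. Rps12 went from 0.685% ± 0.149 to 1.66% ± 0.170 and Rps28 from 0.763% ± 0.0144 to 1.21% ± 0.0705 (SD, n = 3 for each). Hsp90ab1, a cytosolic chaperone, went from 0.607% ± 0.0396 to 1.45% ± 0.0271 (SD, n = 3). Rplp1 had 0.688% ± 0.125 and 1.21% ± 0.106, Ptma 0.827% ± 0.150 and 1.56% ± 0.235, and Atox1 0.741% ± 0.117 and 1.29% ± 0.0820, in the same order. Rps4x, also among the 10 deepest, went the other way, with 1.15% ± 0.0654 up to position 20 and 0.996% ± 0.0444 behind it (SD, n = 3). These transcripts were named for depth, and no test was made on single transcripts between these 2 stretches.

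Single transcripts were then tested for a difference between positions 1 to 50 and 51 to 200. Of 2276 transcripts, 22 were lower at the start (0.967% of those tested) and 6 were higher (0.264%), by a quasi-binomial F test over cytosines with Benjamini-Hochberg adjustment and the same sign in all 3 libraries. Cytosines close together are read on the same fragments, which makes the p-values too small. Without regard to a call, 740 transcripts were lower in every library and 231 were higher in every library. The mean difference was below 0 in 1486 (65.3%), and the median difference was -0.250 percentage points. At an unadjusted p below 0.05, 217 were lower and 52 higher in every library. A test that takes every read as independent (Cochran-Mantel-Haenszel, library as stratum) called 160 lower and 52 higher. Without replicate 1, 2 or 3, in that order, 12, 15 and 14 transcripts were called lower and 8, 2 and 3 higher. Of the 22 lower calls 11, 13 and 14 were among these, and of the 6 higher calls 5, 2 and 3.

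The lower calls were led by Tuba1a, an alpha-tubulin. Its 24 members stood at 0.717%, 0.764% and 0.664% in replicates 1, 2 and 3, and its 22 cytosines at 51 to 200 at 2.28%, 2.01% and 1.56%. The 2 stretches did not overlap in any library (difference -1.24 ± 0.333 percentage points, quasi-binomial adjusted p = 2.3e-05). Cct8, a subunit of the CCT chaperonin that folds actin and tubulin, had 1.07%, 0.850% and 0.971% at the start and 2.11%, 2.07% and 1.88% behind it (quasi-binomial adjusted p = 0.000129). Hspa5, the chaperone of the endoplasmic reticulum, was called in both of its listed models, which share their first 30 nt. The model NM_001163434.1 had 0.752% ± 0.201 against 1.53% ± 0.0956, and NM_022310.3 had 0.832% ± 0.119 against 1.94% ± 0.216 (SD, n = 3).

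The next lower calls came from genes of varied roles. Wtip had 9 unconverted of 2915 reads at the start, summed over cytosines and libraries. Its share was 0.307% ± 0.0982 against 1.86% ± 0.484, and 1810037I17Rik had 1.04% ± 0.162 against 2.55% ± 0.366 (SD, n = 3). Atp1b3, a subunit of the sodium pump, had 0.657% ± 0.277 against 1.90% ± 0.189, and Phb2, a mitochondrial prohibitin, 0.405% ± 0.147 against 1.77% ± 0.321. Ubb, a polyubiquitin gene whose repeats make its reads hard to place, had 0.969% ± 0.116 against 2.77% ± 0.193, and Syf2, a splicing factor, 0.791% ± 0.118 against 2.25% ± 0.444. Their quasi-binomial adjusted p-values ran from 0.000598 to 0.00759. Tuba1a, Cct8, the Hspa5 model NM_001163434.1, 1810037I17Rik, Wtip and Atp1b3 kept the call under all 8 alternatives run for each.

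The 6 higher calls rested on 146 reads at the start in Sik1 to 6288 in Ube2d3, summed over cytosines and libraries. A fragment that spans several cytosines is counted once for each in such sums. Ube2d3, a ubiquitin-conjugating enzyme, had 3.18%, 3.39% and 2.97% at the start in replicates 1, 2 and 3 against 1.49%, 1.36% and 1.34% behind it (quasi-binomial adjusted p = 0.00951). The excess lay behind position 20, with 3.88% ± 0.356 at 21 to 50 and 1.05% ± 0.170 up to 20 (SD, n = 3). Etv5, an ETS transcription factor, had 3.06%, 4.06% and 5.08% against 1.07%, 0.921% and 0.842%, so the 2 stretches did not overlap. The first 50 nt of Etv5 are 88% GC, against a median of 68% in the matched transcripts. Med25, a Mediator subunit, had 4.88% ± 1.21 against 1.60% ± 0.267, and Srpr, a subunit of the signal recognition particle receptor, 4.67% ± 2.13 against 1.46% ± 0.0975 (SD, n = 3). Vac14, a scaffold of phosphoinositide kinase, had 4.54% ± 1.88 against 1.38% ± 0.430. The kinase gene Sik1 had 7.93% ± 4.46 against 1.67% ± 0.230, from only 11 unconverted reads summed over 3 cytosines and the libraries. With a coverage minimum of 20 reads, 2 transcripts were called higher, of which 1 (Ube2d3) was among the 6, and Med25 changed sign, to -0.431 percentage points (quasi-binomial adjusted p = 0.864). Against positions 51 to 100, 1 transcript was called higher and none of the 6 was among the calls. Without sites at 10% or more, 3 of the 6 kept the call (Srpr, Ube2d3 and Vac14).

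**Figure D3:**
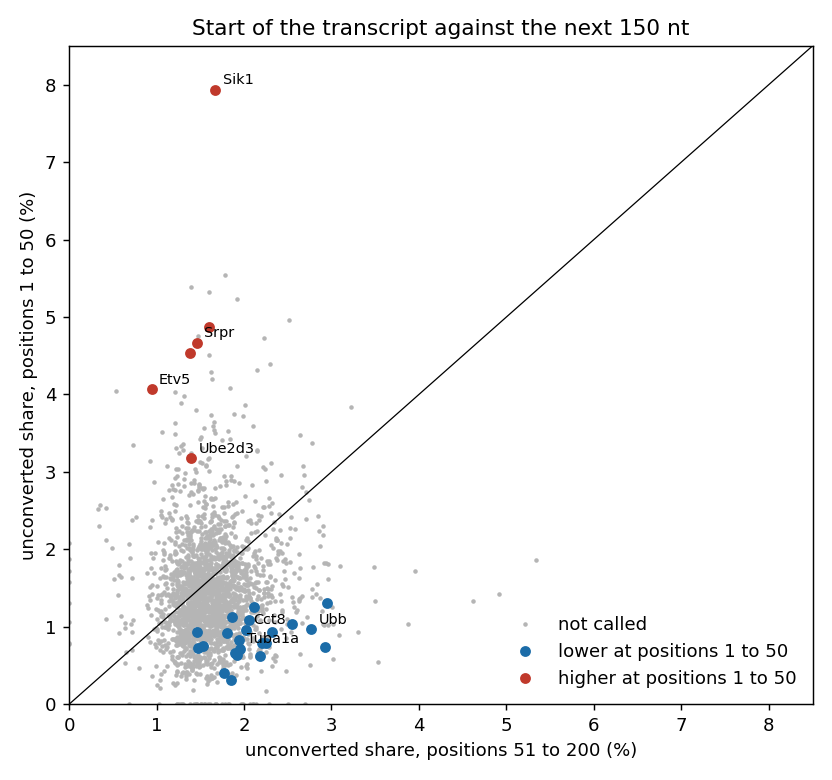
Unconverted share at positions 1 to 50 (vertical, percent) against positions 51 to 200 (horizontal, percent) for 2276 transcripts, each a mean of 3 libraries; the line marks equal shares. The 22 transcripts called lower lie below 1.4% on the vertical axis, and the 6 called higher lie above 3%.

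Sites that stayed unconverted above the library background were rare at the start, as they were over all cytosines. A candidate had an adjusted p below 0.05 (one-sided exact binomial test against the library-wide share in each library, combined by Fisher's method, Benjamini-Hochberg over 1639820 cytosines), a mean share of 10% or more and a share above background in each library. The members held 15 of the 775 candidates, or 66.7 per 100000 cytosines (exact 95% interval 37.3 to 110). At positions 51 to 200 there were 95, or 108 per 100000 (87.7 to 132), and candidates made up 0.0473% of all cytosines and 0.047% of those outside positions 1 to 50. At any level, 123 members passed the adjusted p (0.547%, against 0.499% of all cytosines). The intervals of the 2 stretches overlap, and the difference between them was not tested. None of the 829 members at positions 1 to 10 and 1 of the 2966 at 11 to 20 was a candidate. For positions 1 to 10 the exact 95% upper limit is 444 per 100000, above the rate of either stretch, so a lack of candidates cannot be read there; 2 of these members had an unadjusted combined p below 0.05.

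Rplp2, a protein of the ribosomal stalk, had the single strong site. Its position 19 was unconverted in 16 of 16, 13 of 13 and 12 of 12 reads of replicates 1, 2 and 3, a Wilson 95% interval of 91.4% to 100% over the 41 reads. Of the other cytosines within 10 nt, the 5 with enough coverage to be members stood at 1.96% from a median coverage of 13.7 reads, while the median at 51 to 200 of the message was 746 reads. The site is followed by a guanine in the printed stretch. It kept the call in all 7 alternatives in which it could be tested.

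The other 14 candidates had mean shares between 11.2% and 17.8%. Ppia, cyclophilin A, had the deepest, at position 30, with 21 of 127, 16 of 101 and 10 of 96 reads unconverted, or 14.3% ± 3.35 (SD, n = 3). The 7 other members within 10 nt of it stood at 1.16%. Eif3i, a subunit of the initiation factor eIF3, had 2 of 21, 6 of 30 and 5 of 21 reads at position 48, at 17.8% ± 7.40. Ppp1r14b, an inhibitor of protein phosphatase 1, had 3 sites, at positions 22, 23 and 29 with 15.0%, 14.2% and 11.3%. Capitals in its stretch mark them, the first 2 adjoining. They share reads, and the 8 other members within 10 nt of position 22, which include the other 2 sites, stood at 5.09%.

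The remaining sites rested on 7 to 12 unconverted reads each. Uqcr10, a small subunit of respiratory complex III, had 15.5% ± 6.18 at position 46, from 2 of 22, 4 of 25 and 6 of 28 reads. Pofut2, which adds fucose to proteins, had 17.1% ± 10.4 at position 28, with 1 of 20 reads in replicate 3. Lsm14a, of processing bodies, had 16.1% at position 50, and Glrx5, of iron-sulfur cluster assembly, 14.5% at position 40. Med25 had 13.5% at position 34, Hnrnpa0, an RNA-binding protein, 12.9% at 29, and the phosphatase gene Ptp4a1 11.8% at 31. Dmac2, of complex I assembly, had 11.7% at position 39, and Etv5 11.2% at 31. Of the 15, 8 had an unadjusted p below 0.05 in each library by the exact binomial test. The count was 6 without replicate 2, 7 at a coverage minimum of 20 reads, and 2 (Rplp2 and Ppia) when a site had to pass by its largest single-library p.

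**Figure D4:**
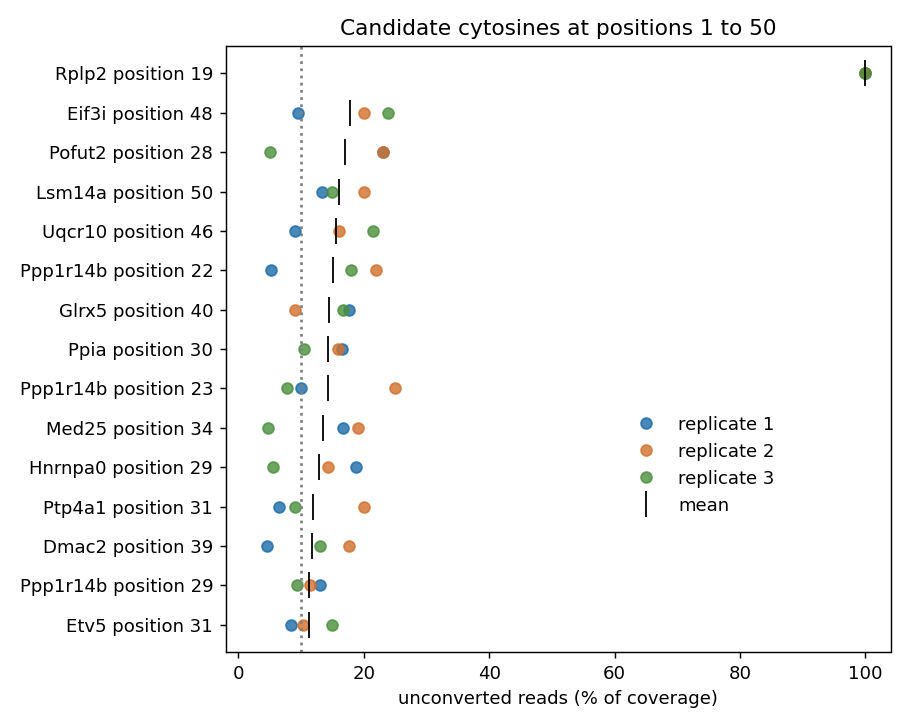
Unconverted share (percent of coverage) in each of the 3 libraries at the 15 candidates of positions 1 to 50, with the mean as a bar; the dotted line marks the 10% minimum of the mean. Rplp2 stands at 100% in all libraries, while single libraries of the other 14 sites range from 4.55% in Dmac2 to 25% in Ppp1r14b.

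Sequence around the members was described in the 1509 matched transcripts. They hold 8 of the 15 candidates. The Rplp2 site, matched only with a shift of the start, is left out here and in the GC, motif and TOP values below. So are the sites of Ppia, Eif3i, Lsm14a, Glrx5, Med25 and Dmac2, which were not matched. Members followed by a guanine had 1.52%, 1.42% and 1.34% unconverted in replicates 1, 2 and 3 (4519 members), and those followed by another base 1.34%, 1.29% and 1.22% (6981 members). The difference was 0.144 ± 0.0326 percentage points (SD, n = 3; exact two-sided sign-flip p = 0.25, the smallest possible). It was seen within each 10 nt step in the mean, from 0.834% ± 0.148 against 0.596% ± 0.134 at positions 1 to 10 to 1.53% ± 0.122 against 1.40% ± 0.0937 at 41 to 50 (SD, n = 3). Members followed by adenine were lowest, at 1.19% ± 0.0594. By the base before them, members after thymine stood at 1.16% ± 0.0556 and those after adenine at 1.54% ± 0.0311 (SD, n = 3). Lone cytosines had 1.41% ± 0.0822, and those in runs of 4 or more 1.31% ± 0.0343 (514 members).

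GC content moved with the share. Transcripts with a GC share of 64% or less in the first 50 nt had 1.27%, 1.19% and 1.11% in replicates 1, 2 and 3, and those above 72% had 1.54%, 1.51% and 1.41%. In each library the GC-rich starts were higher. Behind position 20 the 2 groups stood at 1.24% ± 0.0765 and 1.53% ± 0.0757, and up to position 20 at 0.870% ± 0.109 and 1.04% ± 0.00946 (SD, n = 3). The lower values up to position 20 were thus seen in both groups.

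Motifs described for the mRNA methyltransferases were searched at the members. CTCCA, the NSUN6 motif, began at 34 members, or 0.284%, and none of these was a candidate. With 8 candidates among 11975 matched members, 34 are too few to show a lack. The motif lies within 50 nt in 4.31% of the matched starts and in 7.48% of all 32851 start sequences. These 34 members had 1.13% ± 0.392 unconverted, against 1.35% ± 0.0687 elsewhere (SD, n = 3). CNGGG, described for NSUN2, began at 294 members, or 2.46%, and is present in 36.0% of matched and 30.5% of all starts. Its members had 1.56% ± 0.0240 against 1.35% ± 0.0702 (SD, n = 3). They held 2 of the 8 candidates among all 11975 matched members. Both lie in 1 transcript, at the adjoining positions 22 and 23 of Ppp1r14b, and share reads, so they are not separate cases of the motif. Only the RNA strand was searched. A match describes letters and not a methylated site, and CNGGG members lie in GC-rich sequence.

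TOP starts, a cytosine at position 1 followed by at least 4 pyrimidines, were found in 39 matched transcripts (2.58%, and 2.51% of all start sequences). Their 308 members had 1.20%, 1.10% and 1.05% unconverted, against 1.43%, 1.36% and 1.29% in the other matched transcripts. Only 21 ribosomal protein transcripts could be matched, and 2 of them had such a start in RefSeq, so the motif was not set against that family. The rest of the 21 count among the other matched transcripts. The contrast therefore sorts RefSeq starts by their letters and does not separate messages known for TOP starts from others.

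Gene lists were described by their counts. Over all transcripts tested, 0.967% were called lower and 0.264% higher. At these shares each list is too small for the absence of a call to show a lack. Of 79 listed genes of cytosolic ribosomal proteins, 53 had members, 608 in all, at a median coverage of 324 to 338 reads. Their share was 1.32% ± 0.0530 at positions 1 to 50 and 1.42% ± 0.0690 at 51 to 200 (SD, n = 3). Of 50 tested transcripts 1 was called lower (Rpl28, 0.935% ± 0.105 against 1.46% ± 0.135) and 0 higher, and 39 had a difference below 0, where 65.3% of all tested transcripts did and 0.967% were called lower. The median difference was -0.315 percentage points, against -0.250 over all transcripts tested. Other messages known for TOP starts, among them Pabpc1, Rack1, Eef2 and Eif3h, had members in 9 of 21 listed genes, and all 9 had a difference below 0 (65.3% of all tested), with a median of -0.388 and no call. Pabpc1, the poly(A)-binding protein, had 1.22% ± 0.0652 against 1.38% ± 0.0625, and Rack1, a ribosome-bound scaffold, 1.21% ± 0.0564 against 1.51% ± 0.0797 (SD, n = 3).

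Translation factors had members in 15 of 30 listed genes, with the candidate of Eif3i and 1 lower call of 14 tested (0.967% of all tested). This call was Tsfm, a mitochondrial elongation factor, at 0.627% ± 0.398 against 2.19% ± 0.451 (SD, n = 3). Eif1 stood at 1.64% ± 0.323 against 1.18% ± 0.171, with no call, while Eif3c, Eif3l and Eif3g had means of 1.08% to 1.42% at the start and 1.44% to 1.50% behind it. Mitochondrial ribosomal proteins had members in 50 of 78 genes and no call among 47 tested, with 1.91% ± 0.616 in Mrpl2 and 1.08% to 1.31% in Mrps24, Mrps35 and Mrps26. The respiratory chain had members in 57 of 89 genes, the candidate of Uqcr10 and no call among 53, with a median difference of -0.122. Its deepest message, Atp5b of the ATP synthase, had 1.63% ± 0.178 against 1.76% ± 0.0640, and Cox7c of cytochrome oxidase 0.893% ± 0.158 against 1.91% ± 0.608 (SD, n = 3).

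Proteasome subunits had members in 21 of 45 genes at 1.18% ± 0.0971 against 1.62% ± 0.0930, and 16 of 20 tested had a difference below 0 (65.3% of all tested), with no call. Psma2, a subunit of the core, had 0.511% ± 0.111 against 1.23% ± 0.259, and Psmb5, which carries a catalytic site, 1.24% ± 0.133 against 1.79% ± 0.157 (SD, n = 3). Chaperones had 3 lower calls among 17 tested (0.967% of all tested), but these came from 2 genes, Cct8 and both Hspa5 models with their shared start. They had 0 higher calls, the Ppia candidate and a median difference of -0.505, against -0.250 over all transcripts. Hspa8, the constitutive Hsp70, had 1.38% ± 0.0780 against 1.21% ± 0.0731 (SD, n = 3), and no call. Glycolysis genes had members in 3 of 18 genes only, Gpi1, Hk2 and Eno1, with no call.

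Pluripotency genes had members in 13 of 27 genes, 135 in all. None was a candidate, but at 66.7 candidates per 100000 members this number is too small to show a lack. Their share was 0.992% ± 0.120 against 1.31% ± 0.0642 (SD, n = 3), none of 12 was called and 9 had a difference below 0, against 65.3% of all tested transcripts. Pou5f1, a core pluripotency factor, had 1.13% ± 0.124 against 1.92% ± 0.167, Klf2, a transcription factor of the naive state, 0.794% ± 0.167 against 1.40% ± 0.0682, and L1td1, an RNA-binding protein, 0.849% ± 0.173 against 1.37% ± 0.0497 (SD, n = 3). Dppa5a had 0.975% ± 0.210 against 1.13% ± 0.0582. Cytoskeletal genes had members in 12 of 25 genes, and of 12 tested transcripts 1 was called lower, Tuba1a (0.967% of all tested). Actg1 had 1.18% ± 0.227 against 1.39% ± 0.106, Actb 1.32% ± 0.0707 against 1.39% ± 0.114 and Pfn1 1.21% ± 0.192 against 1.61% ± 0.0746.

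RNA cytosine methyltransferases and readers had members in 4 genes, 33 in all. None was a candidate, but at 66.7 candidates per 100000 members so few members cannot show a lack. Alyref, an export factor that binds 5-methylcytosine, had 1.34% ± 0.626 at the start against 4.62% ± 0.348 behind it, without a call. Ybx1, a reader, had 1.49% ± 0.326 against 1.81% ± 0.159 (SD, n = 3), and the values of Trdmt1 and Nop2 overlapped between the 2 stretches. Among the markers of embryonic stem cells, 5 of 9 genes had members, with Sox2 at 1.37% ± 0.661 and Lin28a at 1.56% ± 0.803. Fibroblast markers, set for the feeder cells, had 7 listed genes and none with a member, so they add no read to the values of the members. Their listed cytosines do count in the library-wide share. Reads that feeder cells may give to other messages cannot be told apart.

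**Figure D5:**
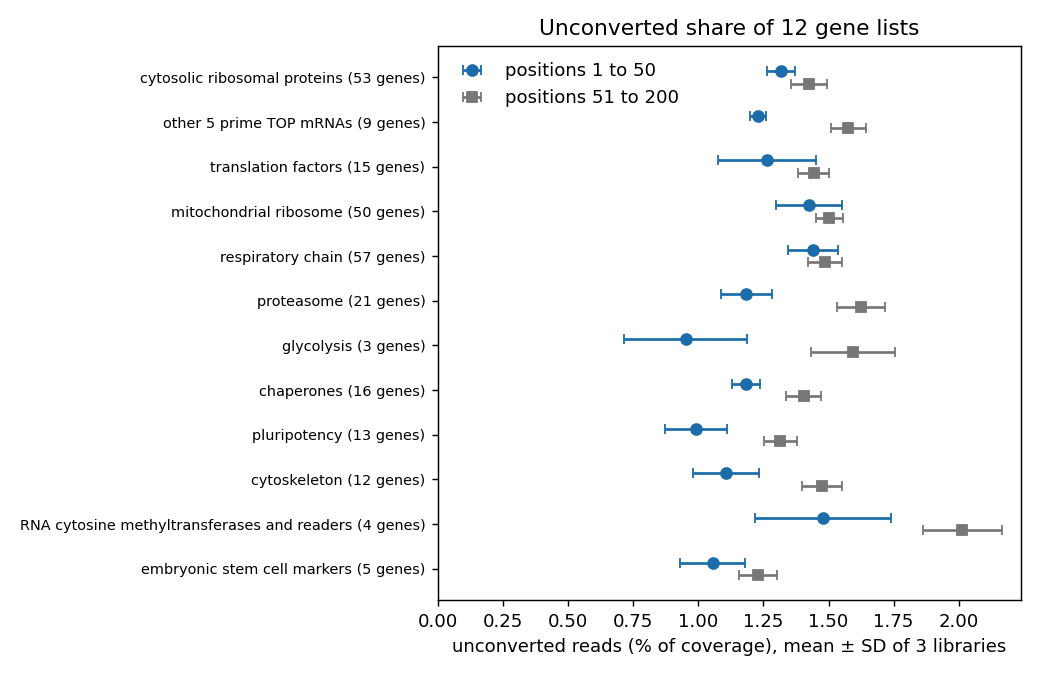
Unconverted share (percent of coverage, mean ± SD of 3 libraries) at positions 1 to 50 (circles) and 51 to 200 (squares) of the same transcripts for 12 gene lists, with the number of genes that have members. The start is lower in the mean of each list, from 0.952% for glycolysis to 1.48% for methyltransferases and readers.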

How the data were processed

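The authors deposited 1 table per sample with, for each cytosine of a RefSeq transcript, its position, its coverage (a raw count of reads) and, as a fraction, the part of them left unconverted, per the file headers. BSMAP and mm9 are named in the submitters' processing notes; their versions and the counting steps and filters were not stated there. No cytosine with a coverage below 3 was listed. Unconverted reads were taken as the product of the 2 columns, a whole number to within 1e-06 at 100% of cytosines. Transcripts were named by accession through a GRCm38.p6 table, and 5 transcripts with members had no name.

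Shares are summed unconverted reads over summed coverage in each library, given as mean ± SD of 3 libraries. Differences were tested by exact sign flips over libraries. Transcripts with 3 or more eligible cytosines on each side were tested by a quasi-binomial F test on reads summed over libraries, with a dispersion of at least 1. Tests were also run on simulated data. For single sites, all unchanged cytosines were set there at the library-wide share without spread between sites, so that run cannot vouch for the candidates. Alternatives were other coverage and level minimums, windows, tests and weightings, and leaving out each replicate; the comparison of positions 1 to 20 with 21 to 50, all its alternatives and 4 others were added after the data were seen.

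The set, the gene lists and the tests were chosen with earlier results of these data known. Named were all candidates if 20 or fewer, the 5 transcripts with the most members, the 10 deepest (some are not reported here), the 10 lowest p-values in each direction, up to 4 genes per list by depth and the 5 deepest cytosines at position 1. Rpl28, Tsfm and Rps4x stand out from lists or counts they belong to. Python 3.11.15, NumPy 2.4.6, SciPy 1.17.1, pandas 2.3.3 and matplotlib 3.10.9 were used.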

Additional observations from a re-analysis of the deposited data

How the results depend on the processing

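Shares at positions 1 to 50 stayed below those at 51 to 200 under every alternative run for that difference, from -0.0756 to -0.297 percentage points, and from -0.0803 to -0.222 with transcripts weighted alike. Leaving out a replicate gave -0.155 to -0.185 and -0.164 to -0.188. The difference between positions 1 to 20 and 21 to 50 stayed between -0.392 and -0.535, and that between members followed by guanine and others between 0.125 and 0.156. The exact test cannot pass a threshold with 3 libraries, so this says nothing of a call. Candidates numbered 7 at a coverage minimum of 20 reads, 1 at a level minimum of 20%, 120 with none and 2 with the highest p-value. Without replicate 1, 2 or 3, in that order, they numbered 14, 6 and 12, of which 10, 6 and 10 were among the 15. The Cochran-Mantel-Haenszel test called 212 transcripts (160 lower, 52 higher), including all 28. Higher calls numbered 2 at 20 reads, 1 against positions 51 to 100 and 3 without sites at 10% or more. Leaving out a replicate gave 17 to 20 calls, 12 to 15 lower and 2 to 8 higher. Over single called transcripts, 161 of the repeat values kept the call, 56 lost it and 1 reversed (Med25 at 20 reads, -0.431). Over candidate sites 79 kept it and 32 lost it. The causes were not tested. At the median member depth a share below about 10% in 1 library can go unseen. No paired analysis was possible because there is only 1 group, so no samples pair across groups; stretches were compared within each library.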

Other observations

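Below the 10% minimum, 107 members of 75 transcripts passed the binomial test at an adjusted p of 0.05. They are deep, with a median of 360 reads per library, and 33 lie in cytosolic ribosomal protein genes, which hold 608 of the 22504 members. At positions 1 to 20, where 3795 members lie, there were 5. With the 15 candidates and 1 further member at 10% or more that did not meet the other criteria, 123 members (0.547%) passed the test at any level, against 0.499% of all cytosines and 1.24% at positions 51 to 200 of the same transcripts. The sites below were named after their values were seen, from those with the lowest p.

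Position 50 of Eef2, which moves the ribosome along the message, was unconverted at 6.06%, 7.14% and 5.51% in replicates 1, 2 and 3, from 2841 reads. Ranbp1, a Ran-binding protein, had 6.05% ± 0.672 at position 46 and Hint1 4.26% ± 0.408 at position 48 (SD, n = 3). Ptma had 3.83% ± 0.0100 at position 36 (SD, n = 3). In Rps20, which held 8 such sites, position 24 stood at 2.30%, 2.18% and 2.24% from 34594 reads, close together in the 3 libraries. Reads of Rps20 and Ptma may come in part from near-identical copies, which was not tested.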
